A study of Homo sapiens with 12 samples.

Results

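The potassium channel genes KCNQ1, KCNH2, KCNJ2, KCNJ3, KCNJ5, KCNJ8, KCNE1, KCND3, KCNA5 and KCNQ5 were followed in cardiac differentiation cultures of H1, a human embryonic stem cell line. They were chosen by symbol, 10 genes of the 61806 in the table, and each symbol matched 1 gene. Bulk RNA-seq had been carried out in 3 treatments, on differentiation Day 12 and Day 16, with 2 libraries per treatment and day and 12 libraries in all. All cultures were wild type and had received CHIR-99021, a WNT activator, on Day 0 and insulin in DF medium on Day 1. NP-IWP2 cells then stayed in static culture with IWP2, a WNT inhibitor, from Day 2 to Day 4. P-DF cells, labelled Pass-ctrl, were dissociated and replated on Day 2 and left to differentiate in DF medium without IWP2, while P-IWP2 cells underwent the same replating together with IWP2. The labels do not say that the 2 libraries of a group came from separate cultures, so the p-values measure the spread between libraries, which may be technical. In bulk libraries, a lower value can mean fewer cells of a type or less RNA per cell, and these cannot be told apart here.

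Potassium channels end the cardiac action potential and hold the resting potential of heart muscle cells. Delayed rectifiers open slowly during the plateau and repolarise the cell, and transient outward channels open briefly after the upstroke. Inward rectifiers pass current mainly near the resting potential, and some of them are gated by G proteins or by ATP. The G protein gated channel of KCNJ3 and KCNJ5 and the ultrarapid current of KCNA5 are known from atrial muscle. The rapid and slow delayed rectifiers of KCNH2 and of KCNQ1 with KCNE1, and the inward rectifier of KCNJ2, are prominent in ventricular muscle, though atrial cells carry them too. KCND3 encodes a transient outward channel and was grouped with the ventricular genes here. KCNJ8, the pore of an ATP-sensitive channel, and KCNQ5, better known from neurons and smooth muscle, were placed in neither set.

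Between 14885589 and 19176239 reads were counted per library. All 8 cardiomyocyte markers examined, among them TNNT2 and NKX2-5, were detected in each library. Static cultures also held RNA of other lineages: 5 hepatic markers summed to 368 to 755 FPKM (reads scaled to exon length and to the reads counted in the library) in NP-IWP2 libraries and to 5.71 to 20.1 FPKM in passaged libraries. The Day 12 library labelled P-IWP2 replicate 5 stood apart from its partner. Its 5 epicardial markers summed to 140 FPKM against at most 0.82 in the other passaged libraries, and its cardiomyocyte markers to 1176 against 2627 FPKM in replicate 6. This library entered a spread shared by all 6 groups, so the counts of called channel and marker genes are also given without it.

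The level of a channel gene here means its FPKM, which can be compared between genes because it is scaled to exon length. Averaged over the 12 libraries, KCNJ5 (15.3 FPKM) and KCNH2 (14.2) were the highest, followed by KCNQ5 (10.3), KCNJ8 (6.98), KCNA5 (4.20) and KCNQ1 (3.90). KCNJ3 averaged 1.40 FPKM, and KCND3 (0.379) and KCNE1 (0.363) were far lower. KCNJ2 was lowest, at 0.05 FPKM, with 1 to 11 reads per library. The ranges of KCNJ5 (3.08 to 34.5) and KCNH2 (9.42 to 19.5) overlapped, as did those of KCND3 (0.05 to 0.91) and KCNE1 (0.15 to 0.83), so the order within these pairs is not fixed by the data. Of the 10 genes, 9 passed the filter on low counts and were tested, and KCNJ2 was not.

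**Figure D1:**
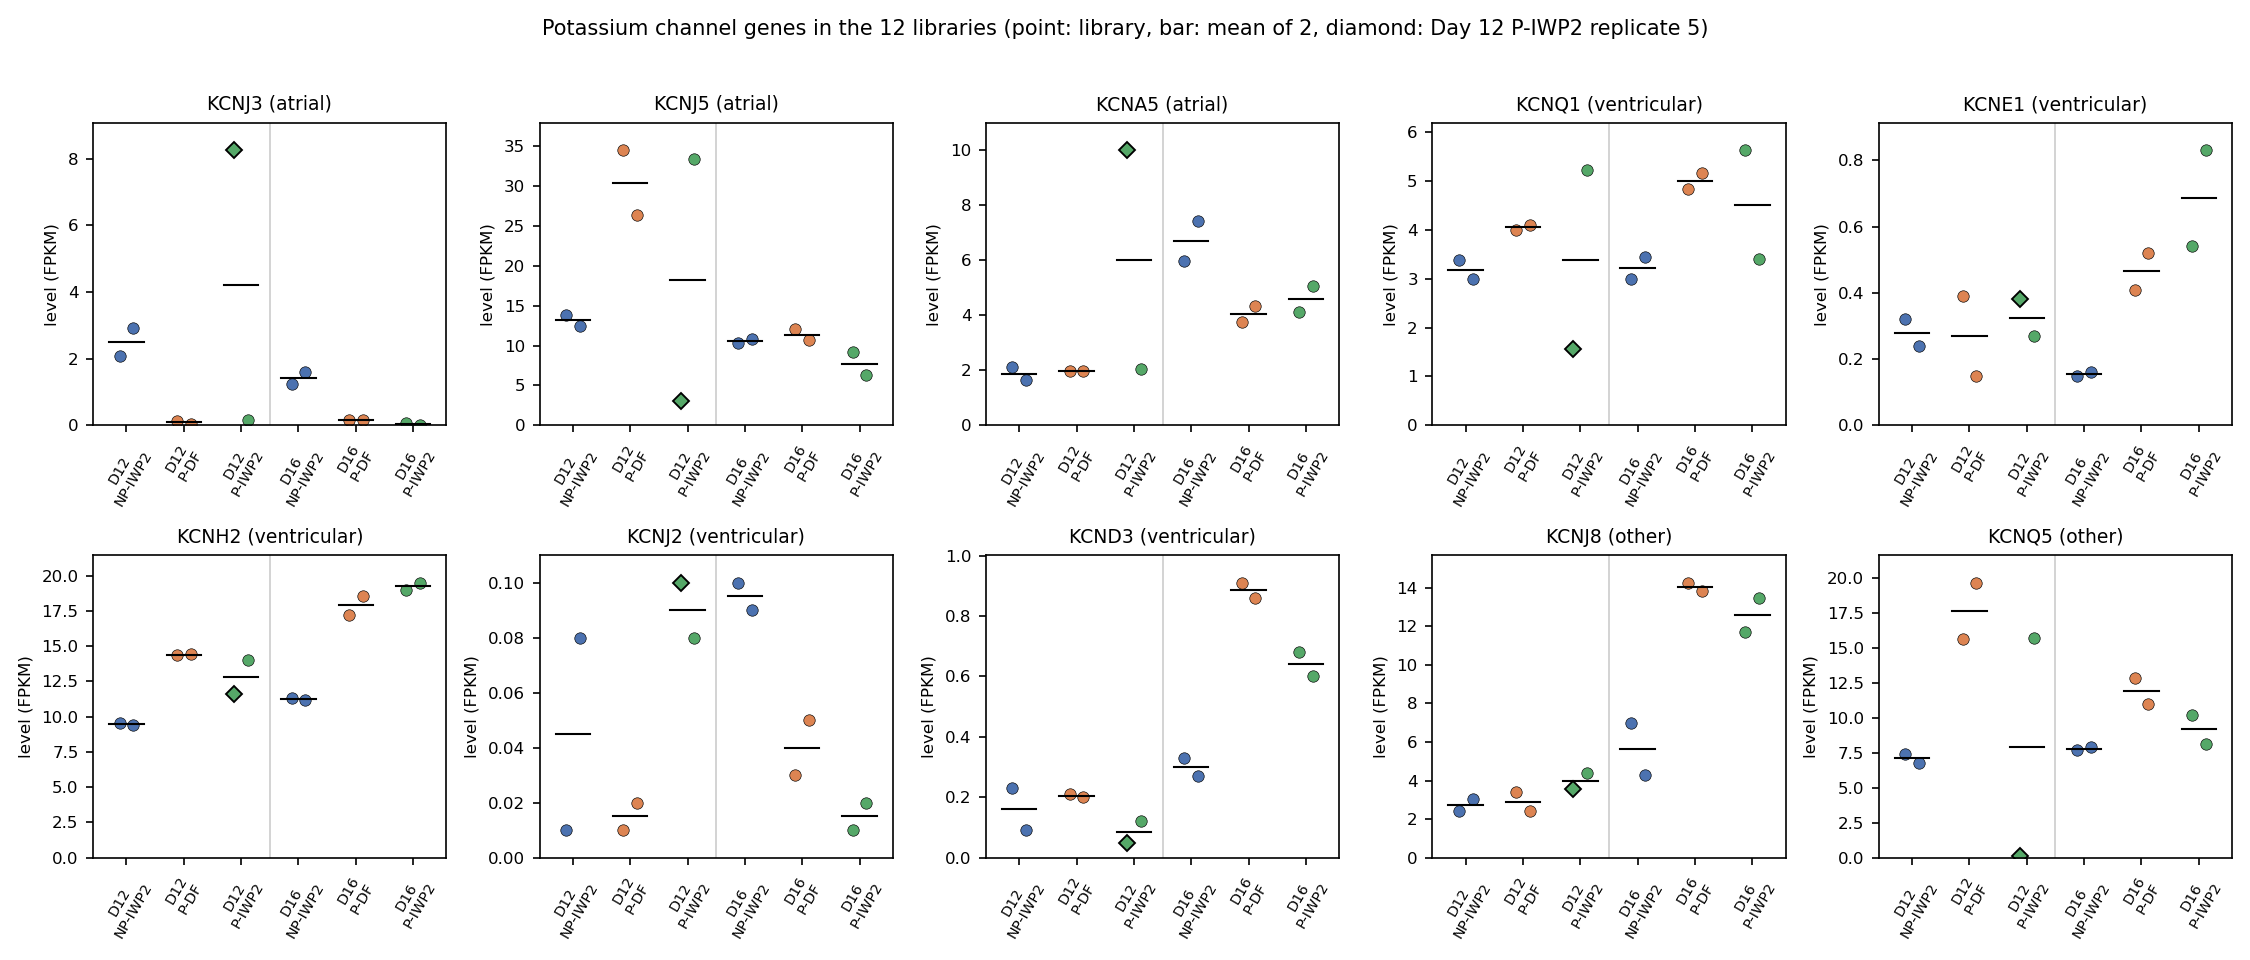
Level of each of the 10 genes (FPKM, vertical axis from 0) in the 6 groups of day and treatment, with a point per library, a bar at the mean of 2 libraries and a diamond for the Day 12 P-IWP2 replicate 5. KCNJ3 sat near 0 in every passaged library but that one (8.25 FPKM), and KCNH2 and KCNJ8 were highest in the 4 passaged libraries of Day 16.

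Passaged and static cells were compared within each day to see whether replating on Day 2 went with another set of channel transcripts. P-IWP2 and NP-IWP2 cells differ in replating alone, as labelled. P-DF and NP-IWP2 cells differ in both replating and IWP2, and no static culture without IWP2 is among the libraries. The parts of replating and of IWP2 in the P-DF differences therefore cannot be told apart from that comparison. On Day 16, KCNH2 and KCNJ8 were higher in both passaged treatments than in static cells, by about the same fold in each. KCNE1 was higher in both as well, and KCND3 was called as higher in P-DF cells. None of the 3 atrial genes was called on either day with all 12 libraries. A gene was called when its Benjamini-Hochberg adjusted p from the quasi-likelihood test of edgeR, taken over all genes tested, was under 0.05. Fold changes are given as log2 ± SE from that model. Shares of all genes called refer to edgeR, and counts of channel genes called by DESeq2 are given without such a share.

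On Day 16, 4 of the 9 tested channel genes were called in P-DF against NP-IWP2 cells, all higher, where 15.3% of the 19505 genes tested were called. In P-IWP2 against NP-IWP2 cells, 3 were called, all higher, beside 17.1% of all genes. The median log2 fold change of the channel genes was 0.87 in the P-DF group and 0.75 in the P-IWP2 group, against -0.02 and -0.03 over all genes tested. The 8 cardiomyocyte markers moved with them, with medians of 0.76 and 0.72: 4 were higher and 1 lower in the P-DF group, and 3 higher and 1 lower in the P-IWP2 group (7 higher and 1 lower in each without the Day 12 replicate 5). Their part in the channel results was not tested. The 2 comparisons share the NP-IWP2 libraries, so they are not independent. Without the Day 12 P-IWP2 replicate 5, 7 of the 9 were called in each comparison (6 higher and KCNJ3 lower), beside 32.4% of all genes for P-DF and 34.8% for P-IWP2 cells.

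On Day 12, 1 of the 9, KCNH2, was called in P-DF against NP-IWP2 cells, beside 4.01% of all genes. P-IWP2 against NP-IWP2 cells gave no call among the channel genes with edgeR, beside 1.66% of all genes, and 2 of the 9 (KCNA5 and KCNH2) had an unadjusted p under 0.05. DESeq2 called none there either. Without the library that stood apart, 4 channel genes were called for P-DF cells (KCNH2, KCNJ5 and KCNQ5 higher, KCNJ3 lower), beside 21.9% of all genes. For P-IWP2 cells 5 were then called, the same 4 in the same directions and KCNQ1 higher, beside 15% of all genes, with replicate 6 as the only library of its group. That lone library is assumed to vary like the other groups.

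**Figure D2:**
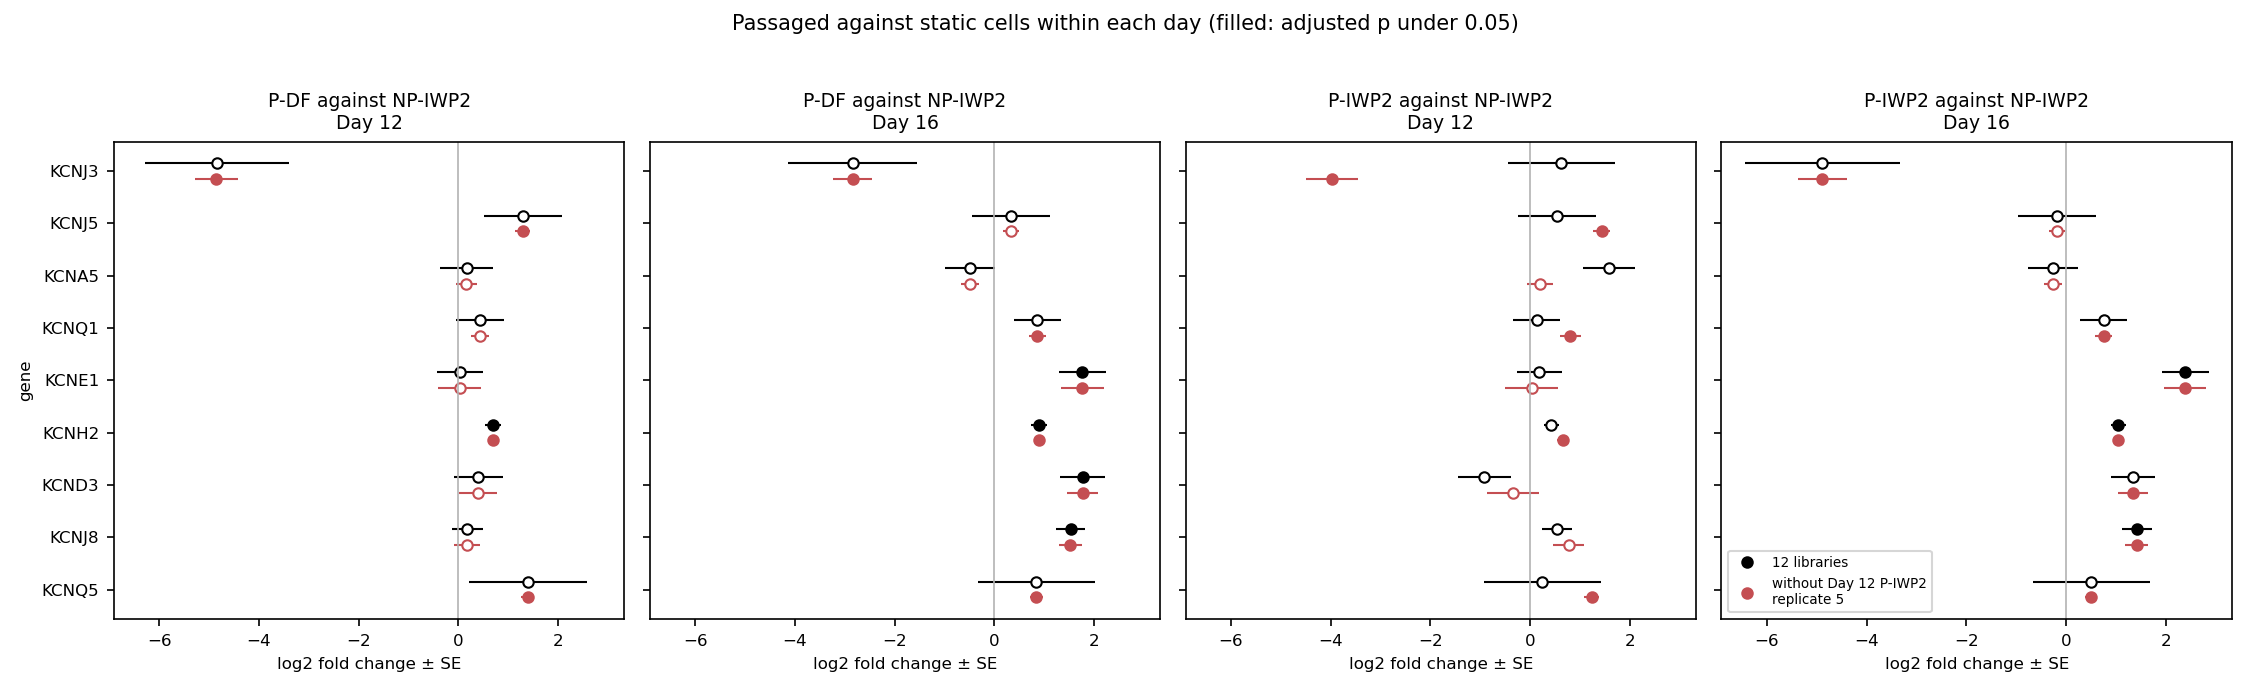
Log2 fold change of passaged against static cells (horizontal axis, bars ± SE) for the 9 tested genes in 4 comparisons, from 12 libraries (black) and without the Day 12 P-IWP2 replicate 5 (red), with filled points for an adjusted p under 0.05. The fold changes of P-DF cells hardly moved when that library was left out, while their bars became shorter, and KCNJ3 in Day 12 P-IWP2 cells went from 0.63 to -3.97.

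In a model of both days, with the day as a term, 7 of the 9 channel genes were called in P-DF against NP-IWP2 cells, beside 34.4% of the 17909 genes tested. KCNJ3 was lower, and KCNH2, KCNQ1, KCNQ5, KCNJ5, KCND3 and KCNJ8 were higher. KCNA5 and KCNE1 were not called, with a log2 fold change of -0.20 ± 0.17 and 0.90 ± 0.42. For P-IWP2 cells no channel gene was called with edgeR, beside 2.46% of all genes, and 3 had an unadjusted p under 0.05, while DESeq2 called 2. Without the Day 12 replicate 5, 5 were called for P-IWP2 cells (KCNH2, KCNJ8, KCNQ1 and KCNQ5 higher, KCNJ3 lower), beside 26.2% of all genes.

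P-IWP2 and P-DF cells differ in IWP2 alone, as labelled. No gene of the table was called between them on Day 12 or on Day 16 with edgeR (0% of all genes on both days), although 2061 and 1567 genes had an unadjusted p under 0.05, and DESeq2 called 173 and 112 genes. Without the Day 12 replicate 5, edgeR called none on Day 12 (657 with an unadjusted p under 0.05) and 510 on Day 16, which is 2.49% of all genes. No channel gene was among them. Among the channel genes 3 had an unadjusted p under 0.05 on Day 12 and none on Day 16, against none and 3 (KCNJ3, KCNJ5 and KCNQ5) without that library, and DESeq2 on all 12 libraries called 1 on Day 12 and none on Day 16. On Day 16 the largest channel difference was that of KCNJ3, at -2.05 ± 1.78, an interval too wide to tell the treatments apart. KCNH2 differed by 0.15 ± 0.15 there.

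KCNH2 encodes the pore of the rapid delayed rectifier. The RefSeq table lists 5 starts for it on chromosome 7, whose windows differ in the letters they hold. The 250 bases upstream of the first listed start are shown because KCNH2 was the channel gene called in the most comparisons. They come from RefSeq (GRCh38.p14), as chr7:150978322-150978571 on the minus strand, with the CCAAT letters in capitals.
KCNH2: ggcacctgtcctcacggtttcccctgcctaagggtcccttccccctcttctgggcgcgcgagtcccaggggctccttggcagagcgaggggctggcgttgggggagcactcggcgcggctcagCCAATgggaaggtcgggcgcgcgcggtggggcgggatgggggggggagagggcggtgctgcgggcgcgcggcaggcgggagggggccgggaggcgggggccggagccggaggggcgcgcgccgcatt
The CCAAT letters were searched on both strands, as were the GATA letters AGATAA and their variant TGATAA, the T-box letters AGGTGT, the NR2F letters AGGTCA, the E-box CACGTG, the NKX2-5 letters TNAAGTG and the TATAAA box. CCAAT stands in 32.0% of the upstream windows of 35116 promoters, so its presence is common. The window is 77.2% G and C.

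KCNH2 measured 9.54 and 9.42 FPKM in the Day 12 NP-IWP2 libraries, 14.4 and 14.5 in the P-DF libraries, and 11.6 (replicate 5) and 14.0 in the P-IWP2 libraries. By Day 16 it reached 11.3 and 11.2 FPKM in static cells, 17.3 and 18.6 in the P-DF libraries, and 19.0 and 19.5 in the P-IWP2 libraries. Every passaged library lay above both static libraries of its day. The log2 fold change in P-DF cells was 0.69 ± 0.15 on Day 12 (adjusted p = 0.0419, edgeR) and 0.90 ± 0.15 on Day 16 (adjusted p = 0.00614). In P-IWP2 cells it was 0.43 ± 0.15 on Day 12 (adjusted p = 0.288) and 1.05 ± 0.15 on Day 16 (adjusted p = 0.00321). Over both days P-DF cells were higher by 0.80 ± 0.07 (adjusted p = 5.08e-05). The Day 12 call was lost when any library other than the 2 of Day 12 P-IWP2 was left out, and the Day 16 call in P-DF cells without NP-IWP2 replicate 2 or P-DF replicate 4 of that day (adjusted p = 0.0670 and 0.0695). The Day 16 call in P-IWP2 cells held without each library.

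KCNQ1 and KCNE1 encode the pore and the accessory subunit of the slow delayed rectifier. KCNQ1 measured 3.38 and 2.99 FPKM in Day 12 static cells, 4.01 and 4.10 in the P-DF libraries, and 1.56 (replicate 5) and 5.23 in the P-IWP2 libraries. Its Day 16 levels were 3.00 and 3.45 FPKM in static cells, 4.83 and 5.16 in the P-DF libraries, and 5.63 and 3.41 in the P-IWP2 libraries. P-DF cells lay above static cells on each day, while the P-IWP2 libraries fell on both sides of them on Day 12 and overlapped them on Day 16. Over both days KCNQ1 was called in P-DF cells, at 0.65 ± 0.12 (adjusted p = 0.00232, edgeR), and this held without each library. KCNQ1 shares 2.72% of its exon bases with the antisense RNA KCNQ1OT1, which had 338 to 832 counts, and the strand setting of the counting is not given in the sources used here.

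KCNE1 was near 0.3 FPKM in most Day 12 libraries and separated on Day 16. Its Day 16 levels were 0.15 and 0.16 FPKM in static cells, 0.41 and 0.52 in the P-DF libraries, and 0.54 and 0.83 in the P-IWP2 libraries, with no overlap between static and passaged cells. The log2 fold change was 1.77 ± 0.47 in P-DF (adjusted p = 0.0349, edgeR) and 2.40 ± 0.47 in P-IWP2 cells (adjusted p = 0.0100). On Day 12 the levels were 0.32 and 0.24 FPKM in static cells, 0.39 and 0.15 in the P-DF libraries, and 0.38 and 0.27 in the P-IWP2 libraries, and the groups overlapped. The gene had 17 to 115 counts per library. The P-DF call was lost without any of the 4 NP-IWP2 libraries or either Day 16 P-DF library (adjusted p up to 0.187), and the P-IWP2 call without either Day 16 NP-IWP2 library or Day 16 P-IWP2 replicate 6 (up to 0.0836).

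The ratio of KCNQ1 to KCNE1, per exon length, ranged from 4.11 to 27.3 over the 12 libraries, so the pore transcript exceeded that of its accessory subunit throughout. On Day 16 it was 20 and 21.6 in static cells, 11.8 and 9.92 in the P-DF group and 10.4 and 4.11 in the P-IWP2 group. Static cells thus had the higher ratio on that day in both libraries, and on Day 12 the groups overlapped.

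KCNA5, the pore of the ultrarapid delayed rectifier, was not called between passaged and static cells on either day with 12 libraries. On Day 12 its levels were 2.12 and 1.64 FPKM in static cells, 1.99 and 1.98 in the P-DF libraries, and 9.98 (replicate 5) and 2.04 in the P-IWP2 libraries. Apart from replicate 5 these values were close together. On Day 16 they were 5.98 and 7.42 FPKM in static cells, 3.76 and 4.33 in the P-DF libraries, and 4.11 and 5.05 in the P-IWP2 libraries, with both static libraries above all passaged ones. The differences of -0.49 ± 0.50 in P-DF (adjusted p = 0.539, edgeR) and -0.26 ± 0.50 in P-IWP2 cells (adjusted p = 0.752) did not pass.

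KCNQ5, a slow voltage-gated channel gene, measured 7.44 and 6.80 FPKM in Day 12 static cells, 15.7 and 19.7 in the P-DF libraries, and 0.15 (replicate 5) and 15.7 in the P-IWP2 libraries. With 27 counts, replicate 5 was more than 40-fold below each other library. On Day 16 the gene measured 7.69 and 7.89 FPKM in static cells, 12.9 and 11.0 in the P-DF libraries, and 10.2 and 8.13 in the P-IWP2 libraries. Over both days it was higher in P-DF cells by 1.12 ± 0.13 (adjusted p = 0.000191, edgeR), and the call held without each library. Within a day the fold changes of 1.40 ± 1.19 (Day 12) and 0.85 ± 1.18 (Day 16) in P-DF cells were not called with 12 libraries and were called without replicate 5, at 1.39 ± 0.13 and 0.84 ± 0.12.

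KCNJ3 and KCNJ5 encode the subunits of the G protein gated inward rectifier that acetylcholine opens in atrial cells. Over both days in P-DF cells KCNJ3 was lower and KCNJ5 higher, while in P-IWP2 cells of Day 16 the mean level of each lay below that of static cells. The upstream bases of KCNJ5 are shown to set beside those of KCNH2 and KCNJ8, while for KCNJ3 the window overlaps annotated exons and is not printed. The KCNJ5 window is chr11:128891106-128891355 on the plus strand (RefSeq, GRCh38.p14), is 75.2% G and C, and holds none of the letters searched.
KCNJ5: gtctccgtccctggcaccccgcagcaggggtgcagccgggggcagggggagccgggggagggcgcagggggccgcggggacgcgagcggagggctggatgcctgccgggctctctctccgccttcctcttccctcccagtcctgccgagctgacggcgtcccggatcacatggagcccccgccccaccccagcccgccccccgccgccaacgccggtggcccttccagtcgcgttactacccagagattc
That no letters matched concerns this window only.

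KCNJ3 had 182 and 234 counts in Day 12 NP-IWP2 libraries (2.08 and 2.91 FPKM), 10 and 2 in P-DF (0.14 and 0.03 FPKM) and 633 (replicate 5, 8.25 FPKM) and 12 (0.15 FPKM) in P-IWP2. By Day 16 the counts were 117 and 126 in NP-IWP2 (1.25 and 1.60 FPKM), 13 and 15 in P-DF (0.16 and 0.17 FPKM) and 5 and 2 in P-IWP2 (0.06 and 0.02 FPKM). All passaged libraries except replicate 5 lay far below every static library. Over both days KCNJ3 was lower in P-DF cells by -3.73 ± 0.43 on the log2 scale (adjusted p = 0.000203, edgeR), and this held without each library. Within a day the log2 fold change in P-DF cells was -4.84 ± 1.44 on Day 12 (adjusted p = 0.0951) and -2.84 ± 1.29 on Day 16 (adjusted p = 0.165), and in P-IWP2 cells on Day 16 -4.89 ± 1.56 (adjusted p = 0.0597). All 3 were called without replicate 5, with values of -4.86, -2.84 and -4.89. Counts of 2 are below 3, the limit that a count of 0 allows, so the size of these folds is poorly fixed.

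The summed neuronal and epicardial markers, like KCNJ3, were higher in static libraries and replicate 5 than in the other passaged libraries. The 5 neuronal markers summed to 3.96 to 21.9 FPKM in static libraries, 13.0 in replicate 5 and at most 1.29 in the other passaged libraries. The 5 epicardial markers summed to 38.7 to 96.9 FPKM in static libraries, 140 in replicate 5 and 0.25 to 0.82 in the others. In static cells the neuronal sum went from 4.27 and 3.96 FPKM on Day 12 to 20.5 and 21.9 FPKM on Day 16. The epicardial sum went from 38.7 and 59.5 to 66.5 and 96.9 FPKM, and KCNJ3 from 2.08 and 2.91 to 1.25 and 1.60 FPKM. In some passaged libraries the epicardial WT1 and TCF21 and the neuronal STMN2, ELAVL3 and ELAVL4 were at 0. The 5 hepatic markers summed to 368 to 755 FPKM in static libraries and to 7.88 FPKM in replicate 5. The part of these cells in the KCNJ3 result was not tested.

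KCNJ5 measured 13.8 and 12.5 FPKM in Day 12 static cells, 34.5 and 26.3 in the P-DF libraries, and 3.08 (replicate 5) and 33.4 in the P-IWP2 libraries. By Day 16 it stood at 10.4 and 10.8 FPKM in static cells, 12.1 and 10.7 in the P-DF libraries, and 9.18 and 6.32 in the P-IWP2 libraries. The P-DF libraries lay above static cells on Day 12 and overlapped them on Day 16. The Day 12 fold change in P-DF cells, 1.30 ± 0.79 (adjusted p = 0.371, edgeR), was called without replicate 5, at 1.29 ± 0.15. Over both days it was 0.82 ± 0.19 (adjusted p = 0.00868), which held without each library.

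KCNJ5 exceeded KCNJ3, per exon length, 4.30 to 8.28 times in the 4 static libraries. In the passaged libraries other than replicate 5 the excess was 63.1 to 878 times. In replicate 5 the order turned, with KCNJ3 2.68 times as high as KCNJ5. These ratios rest on few KCNJ3 reads in passaged cells.

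KCNJ8 encodes Kir6.1, the pore of an ATP-sensitive channel that is also abundant in smooth muscle cells and pericytes. Its upstream window is shown because KCNJ8 was called in both passaged treatments on Day 16. It is chr12:21774707-21774956 on the minus strand (RefSeq, GRCh38.p14), inside the span of the gene model in the table, and 64.8% G and C. The NKX2-5 letters are in capitals and stand in 8.73% of all upstream windows.
KCNJ8: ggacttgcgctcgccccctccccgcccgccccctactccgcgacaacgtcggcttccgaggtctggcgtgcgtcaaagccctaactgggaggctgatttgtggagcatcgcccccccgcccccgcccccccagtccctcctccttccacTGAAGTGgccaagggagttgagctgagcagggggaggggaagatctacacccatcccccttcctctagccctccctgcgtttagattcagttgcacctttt
The CCAAT letters that the KCNH2 window holds were not found in this window.

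KCNJ8 measured 2.41 and 3.04 FPKM in Day 12 static cells, 3.40 and 2.40 in the P-DF libraries, and 3.54 (replicate 5) and 4.38 in the P-IWP2 libraries. By Day 16 it had reached 6.99 and 4.29 FPKM in static cells, 14.3 and 13.8 in the P-DF libraries, and 11.7 and 13.5 in the P-IWP2 libraries. The passaged libraries of Day 16 lay well above the static ones, and the groups were close on Day 12. On Day 16 the log2 fold change was 1.53 ± 0.30 in P-DF (adjusted p = 0.0102, edgeR) and 1.43 ± 0.30 in P-IWP2 cells (adjusted p = 0.0127). The P-DF call was lost without Day 16 NP-IWP2 replicate 2, P-DF replicate 3 or P-DF replicate 4 (adjusted p up to 0.0768), and the P-IWP2 call without Day 16 NP-IWP2 replicate 2 or P-IWP2 replicate 6 (up to 0.0993). Over both days P-DF cells were higher by 0.92 ± 0.30 (adjusted p = 0.0380), a call that leaving out Day 12 NP-IWP2 replicate 1, Day 12 P-DF replicate 3 or any of the 4 libraries of Day 16 ended (up to 0.104).

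Smooth muscle and pericyte markers (6 genes, all detected in each library) summed to 271 to 492 FPKM in static and 301 to 999 in passaged libraries of Day 16. With all 12 libraries, 2 of them were called in P-DF cells, PDGFRB and ACTA2, both lower, and in P-IWP2 cells CNN1 (higher) and PDGFRB (lower). When the Day 12 replicate 5 was left out, 2 were higher and 2 lower in the P-DF group, and 3 higher and 1 lower in the P-IWP2 group. PDGFRB, a pericyte and fibroblast receptor, was lower by -5.65 and -4.84 on the log2 scale. The part of such cells in the KCNJ8 result was not tested. The antisense gene that shares 10.7% of the KCNJ8 exon bases had 0 to 4 counts.

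KCND3 encodes Kv4.3, a pore of the fast transient outward current. On Day 12 it measured 0.23 and 0.09 FPKM in static cells, 0.21 and 0.20 in the P-DF libraries, and 0.05 (replicate 5) and 0.12 in the P-IWP2 libraries. Its Day 16 levels were 0.33 and 0.27 FPKM in static cells, 0.91 and 0.86 in the P-DF libraries, and 0.68 and 0.60 in the P-IWP2 libraries, with no overlap between static and passaged cells. The Day 16 log2 fold change was 1.78 ± 0.45 in P-DF (adjusted p = 0.0292, edgeR) and 1.35 ± 0.45 in P-IWP2 cells (adjusted p = 0.0684), and the 2 treatments were not called different (-0.43 ± 0.43). The P-DF call was lost without either Day 12 P-DF library, either Day 16 library of NP-IWP2 or P-DF, or Day 16 P-IWP2 replicate 6 (adjusted p up to 0.195). Over both days P-DF cells were higher by 1.20 ± 0.35 (adjusted p = 0.0253), lost without Day 12 NP-IWP2 replicate 2 or any of the 4 libraries of Day 16 (up to 0.0913). KCND3 had 6 to 125 counts and overlaps the antisense gene DDX20 (316 to 515 counts) over 5.34% of its 19393 exon bases in GENCODE v44. The gene model behind the counts has 8027 exonic bases, so the share of its counted bases was not determined.

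KCNJ2, the main inward rectifier gene of ventricular muscle, was hardly detected. It had 1 and 7 counts in Day 12 static cells, 1 and 2 in the P-DF libraries, and 9 (replicate 5) and 7 in the P-IWP2 libraries. Day 16 libraries held 11 and 8 counts in static cells, 3 and 5 in the P-DF libraries, and 1 and 2 in the P-IWP2 libraries. The Day 16 counts were higher in both static libraries than in any passaged one, but the gene did not pass the filter on low counts and was not tested.

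The comparison of Day 16 with Day 12 asked how the channel genes changed with time in each treatment. KCNJ8, KCND3 and KCNH2 were called as rising in both passaged treatments with 12 libraries. Their changes in NP-IWP2 cells were positive too, at 1.18, 1.01 and 0.36 on the log2 scale, so a rise was not particular to passaged cells. In NP-IWP2 cells no channel gene was called with edgeR, beside 1.98% of all genes, and 3 of the 9 had an unadjusted p under 0.05, while DESeq2 called 2. In P-DF cells 3 of the 9 rose and none fell, beside 13.6% of all genes. In P-IWP2 cells 4 rose (those 3 and KCNE1) and KCNJ3 fell, beside 27% of all genes. A model of the 4 P-IWP2 libraries alone ended all 5 of these calls (adjusted p = 0.108 for KCNJ8, 0.130 for KCND3 and 0.157 for KCNH2).

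KCNJ8 rose by 2.53 ± 0.31 in P-DF cells (adjusted p = 0.00174, edgeR) and by 2.07 ± 0.30 in P-IWP2 cells (adjusted p = 0.00278), and both calls held when any 1 library was left out. In NP-IWP2 cells its change of 1.18 ± 0.30 was not called with 12 libraries (adjusted p = 0.0832, edgeR). Without the Day 12 replicate 5, KCNJ8 and KCNH2 were called as rising in NP-IWP2 cells as well. KCND3 rose by 2.39 ± 0.47 in P-DF (adjusted p = 0.0127) and 3.28 ± 0.51 in P-IWP2 cells (adjusted p = 0.00343), the former lost without any of the 4 P-DF libraries (adjusted p up to 0.115). KCNH2 rose by 0.57 ± 0.15 in P-DF (adjusted p = 0.0394, lost without each library other than the 2 of Day 12 P-IWP2, up to 0.226) and by 0.99 ± 0.15 in P-IWP2 cells (adjusted p = 0.00349). KCNE1 rose by 1.51 ± 0.44 in P-IWP2 cells (adjusted p = 0.0351), a call lost without any NP-IWP2 library, either Day 16 P-DF library or Day 16 P-IWP2 replicate 6 (up to 0.227).

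The fall of KCNJ3 in P-IWP2 cells rests on the library that stood apart. It was -6.22 ± 1.56 (adjusted p = 0.0203, edgeR) with replicate 5 of Day 12 and -1.62 ± 0.79 (adjusted p = 0.161) without it, and the call was also lost without Day 16 P-IWP2 replicate 5 or replicate 6 (adjusted p = 0.0811 and 0.147). Without the Day 12 replicate 5, KCNA5 was called as rising in all 3 treatments, by 1.94 ± 0.20 in static cells, 1.29 ± 0.20 in the P-DF group and 1.48 ± 0.25 in the P-IWP2 group. KCNJ5 was then called as falling in both passaged treatments, by -1.16 ± 0.15 in the P-DF group and -1.82 ± 0.18 in the P-IWP2 group, and was not called in NP-IWP2 cells (-0.20 ± 0.15). In these models 3, 6 and 7 of the 9 were called in static cells, P-DF and P-IWP2 cells, beside 17.1%, 29.2% and 23.7% of all genes.

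A change from Day 12 to Day 16 in the effect of each passaged treatment, against NP-IWP2 cells, was tested by the interaction of treatment and day. For P-DF cells that effect joins replating with the absence of IWP2. No channel gene was called for P-DF cells with edgeR, beside 0.482% of all genes, or for P-IWP2 cells, beside 1.84%. Of the 9, 2 and 5 had an unadjusted p under 0.05, and DESeq2 called none and 2. Without replicate 5, 2 were called for P-DF cells, beside 7.62% of all genes: the effect on KCNJ5 was smaller on Day 16 than on Day 12 by -0.96 ± 0.22, and that on KCNJ8 larger by 1.36 ± 0.35. For P-IWP2 cells 2 were then called, KCNJ5 (-1.61 ± 0.24) and KCNQ5 (-0.73 ± 0.19), beside 7.89% of all genes.

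The 3 atrial genes (KCNJ3, KCNJ5 and KCNA5) were set against the 5 ventricular genes (KCNQ1, KCNE1, KCNH2, KCNJ2 and KCND3) by the mean of log2(FPKM + 1) over each set. On Day 16 the difference, atrial minus ventricular, was 1.22 and 1.38 in the NP-IWP2 libraries, 0.42 and 0.37 in the P-DF libraries, and 0.24 and 0.22 in the P-IWP2 libraries. The passaged libraries thus lay below the static ones, with means lower by -0.91 in the P-DF group and -1.07 in the P-IWP2 group, beside a spread between replicates (SD, n = 2) of about 0.08. Both sides contributed: the mean atrial level was 2.49 and 2.67 in static and 1.83 to 2.06 in passaged cells, and the mean ventricular level 1.27 and 1.29 in static and 1.62 to 1.70 in passaged cells. None of the 3 atrial genes was called on Day 16 with all 12 libraries, and KCNJ3 alone was called without the Day 12 replicate 5. No test was made of this score over chosen genes.

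On Day 12 the difference was 1.14 and 1.19 in static cells, 0.90 and 0.77 in P-DF, and 1.76 (replicate 5) and 0.87 in P-IWP2 libraries. P-DF cells lay below static cells by -0.33, with a spread of 0.07. The size of this difference depends on the scale, at -1.03 on log2(FPKM + 0.1) and -1.29 on log2 CPM. The P-IWP2 mean lay above by 0.15 with replicate 5 and below by -0.29 without it, and the spread of 0.45 exceeded the difference. Within a day the median log2 fold change of the 3 atrial genes and the 4 tested ventricular genes on Day 16 was -0.49 and 1.33 in P-DF, and -0.26 and 1.20 in P-IWP2 cells.

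**Figure D3:**
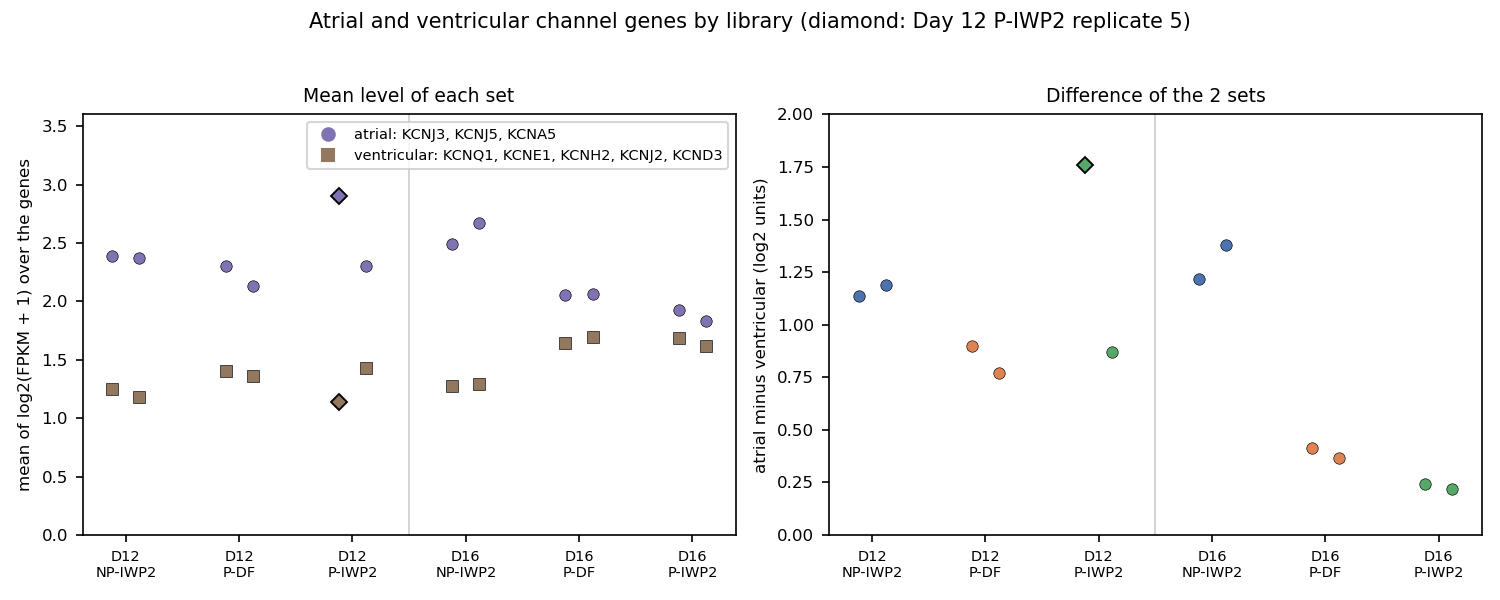
Left, mean of log2(FPKM + 1) over the 3 atrial (circles) and 5 ventricular (squares) channel genes in each library. Right, the difference of the 2 means, with a diamond for the Day 12 P-IWP2 replicate 5, which at 1.76 was the highest, while the 4 passaged libraries of Day 16 lay between 0.22 and 0.42.

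Chamber markers that are not channels gave the background for this split. On Day 12 the 7 atrial markers summed to 3053 and 2720 FPKM in static libraries, 2007 to 2318 in passaged ones and 1363 in replicate 5. The 5 ventricular markers summed on that day to 337 and 296 FPKM in static libraries, 529 to 697 in passaged ones and 90.2 in replicate 5. The 5 ventricular markers summed to 678 and 1115 FPKM in static and 3974 to 4948 in passaged libraries of Day 16, and MYL2, the ventricular myosin light chain, was the one called with all 12 libraries (6.31 in the P-DF group and 5.95 in the P-IWP2 group, log2). All 5 were called as higher in the P-DF group and 3 in the P-IWP2 group without the Day 12 replicate 5. On Day 16 the 7 atrial markers also summed higher in passaged cells, 3788 to 5850 against 1651 and 1952 FPKM, unlike on Day 12. Among them MYL7 was higher in both treatments and NPPA in P-IWP2 cells, while SLN was lower in both and TBX5 lower in P-IWP2 cells. SLN and NR2F1 were at 0 in 6 and 5 libraries. MYL7 makes up most of these sums: the median log2 fold change of the 7 markers was -0.24 in the P-DF group and -0.49 in the P-IWP2 group. Leaving out the Day 12 replicate 5 gave 2 higher and 3 lower in each treatment.

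A wider list of 25 potassium channel genes of the heart, 14 pore subunits and 11 partners, was read in the same way. Of these, 21 were tested and 17 were called in at least 1 comparison with all 12 libraries. The share of all genes called in at least 1 comparison was not computed, so the 17 cannot be set against a background. On Day 16, 2 of 12 tested pore subunits were higher and 3 lower in P-DF cells, and 1 was higher and 3 lower in P-IWP2 cells. Of 9 tested partners, 1 was higher and 2 lower in P-DF, and 1 higher and 3 lower in P-IWP2 cells. Without the Day 12 replicate 5 the pore subunits had 2 higher and 7 lower in the P-DF group, and 2 higher and 5 lower in the P-IWP2 group, and the partners 1 higher and 5 lower, and 1 higher and 4 lower. The shares of all genes called, given above for each comparison, apply here as well.

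KCNK3, a background channel that helps set the resting potential, was higher on Day 16 in both passaged treatments. It measured 0.54 ± 0.23 FPKM in static cells, 3.00 ± 0.12 in the P-DF group and 3.09 ± 0.67 in the P-IWP2 group (SD, n = 2), and the log2 fold changes were 2.68 ± 0.49 and 2.78 ± 0.49 (adjusted p = 0.00825 and 0.00677, edgeR). KCNJ4, an inward rectifier of the same subfamily as KCNJ2, rose from 3.19 ± 1.31 in static to 10.4 ± 1.31 FPKM in P-DF cells (log2 1.91 ± 0.50, adjusted p = 0.0322). KCNJ12, of that subfamily too, fell from Day 12 to Day 16 in P-DF (-0.87 ± 0.21) and P-IWP2 cells (-1.02 ± 0.21). Both exceeded KCNJ2 in every group mean.

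Small-conductance calcium-activated channels were lower in the comparisons that called them. KCNN2, found in atrial muscle, had 11.1 ± 1.5 FPKM in static and 5.24 ± 0.51 in P-DF cells on Day 16 (log2 -0.85 ± 0.19, adjusted p = 0.0193, edgeR), and 10.1 ± 0.49 in P-IWP2 cells, which was not called. KCNN1 was lower in both treatments on Day 16 (-4.62 ± 0.98 and -4.70 ± 0.97), and KCNN3 in P-DF cells over both days (-1.97 ± 0.35). KCNMA1, the large-conductance calcium-activated channel of smooth muscle, was lower in P-DF cells on Day 16 (-4.62 ± 1.23) and over both days. KCNK1 was lower in P-IWP2 cells on Day 16 (-3.38 ± 0.75). KCNN1 had 0 to 2 counts in the passaged libraries of Day 16, KCNK1 3 and 4 in the P-IWP2 libraries of that day, and KCNN3 1 to 7 in the P-DF libraries. The size of these folds is poorly fixed. Over both days P-DF cells also had less KCND2 (-1.72 ± 0.34) and KCNK1 (-1.87 ± 0.26) and more KCNA4 (1.33 ± 0.32). KCNA4 had 2 to 4 counts in the Day 12 libraries of NP-IWP2 and P-DF, so its fold is poorly fixed too.

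Among the partners, KCNE4, a subunit that inhibits KCNQ1 channels, showed the widest difference. It had 3.52 ± 0.59 FPKM on Day 12 and 26.0 ± 2.99 on Day 16 in NP-IWP2 cells, and at most 0.24 FPKM as a mean in any passaged group. The log2 fold change on Day 16 was -8.27 ± 0.60 in the P-DF group and -6.50 ± 0.52 in the P-IWP2 group (adjusted p = 0.000118 and 0.00022, edgeR), and both were called on Day 12 as well. KCNE3 was lower in P-DF cells on Day 16 (-3.36 ± 0.87), with 2 and 1 counts in those libraries, so the size of its fold is poorly fixed. On that day KCNAB2 (-2.17 ± 0.48), a partner of voltage-gated channels, was lower in P-IWP2 cells. DPP6, another such partner, was called as lower there too, with 7 and 10 counts in the Day 16 static libraries and 0 in both P-IWP2 libraries.

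ABCC9, the regulatory subunit that assembles with KCNJ8, went the same way as its pore. On Day 16 it measured 0.69 ± 0.05 FPKM in static cells, 3.33 ± 0.55 in the P-DF group and 2.02 ± 0.23 in the P-IWP2 group, higher by 2.51 ± 0.33 and 1.83 ± 0.33 on the log2 scale (adjusted p = 0.00192 and 0.00688, edgeR). KCNJ8 exceeded ABCC9 3.72 to 13.2 times over the 12 libraries. KCNIP2, the cytoplasmic partner of KCND3, was lower in P-DF cells over both days. It had 6.79 ± 1.03 FPKM in static and 2.12 ± 0.26 in the P-DF libraries of Day 16, a difference that was not called on that day (-1.46 ± 0.75, adjusted p = 0.216), and the difference over both days came to -1.73 ± 0.19 (adjusted p = 0.000164). In P-IWP2 cells the difference was -0.04 ± 0.72 on Day 16 (adjusted p = 0.976) and -0.0761 ± 0.54 over both days (adjusted p = 0.956). The value over both days pools 2 unlike libraries of Day 12, with 35.7 FPKM in replicate 5 and 3.69 in replicate 6. Static cells had 20.8 and 19.0 FPKM on that day, and the P-DF libraries 3.48 and 6.11. An absence of change in P-IWP2 cells therefore cannot be read from it. The excess of KCNIP2 over KCND3 on Day 16 was 22.8 and 22.4 times in static, 2.53 and 2.24 in the P-DF group and 10.2 and 6.90 in the P-IWP2 group.

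**Figure D4:**
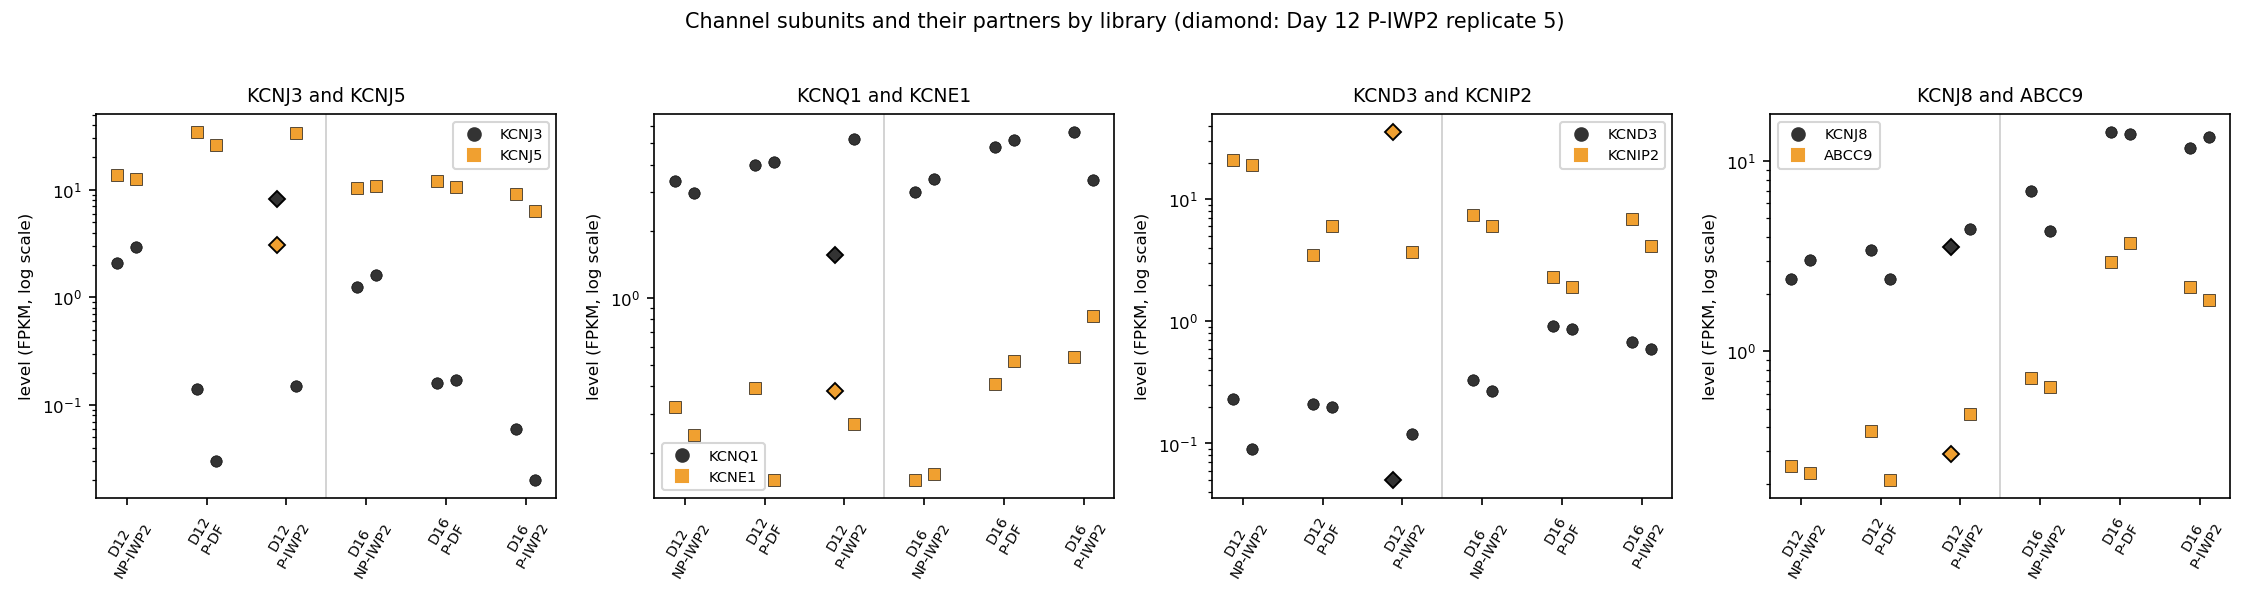
Levels (FPKM, log scale) of KCNJ3 with KCNJ5, KCNQ1 with KCNE1, KCND3 with KCNIP2 and KCNJ8 with ABCC9 in each library by day and treatment, with diamonds for the Day 12 P-IWP2 replicate 5. KCND3 and KCNIP2 came within 2.24 to 2.53 times of each other in Day 16 P-DF cells, and only in replicate 5 did KCNJ3 lie above KCNJ5.

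The members differed in how they varied together. Over the 12 libraries, Pearson's r of log2 CPM (counts scaled to library size) was 0.87 for KCNJ8 with KCND3 and with KCNH2, and 0.85 for KCNQ1 with KCNQ5. KCNJ3 ran opposite to KCNH2 (-0.81), KCNQ1 (-0.79) and KCNQ5 (-0.71), and KCNA5 opposite to KCNJ5 (-0.72). Without replicate 5, KCNQ1 with KCNQ5 came to 0.68 and KCNA5 with KCNJ5 to -0.66. These are descriptions, since the libraries share treatments and days.

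For each tested gene, the 2 named genes with the most similar profile over the 12 libraries were read off by the same r. KCNH2 was most like TMEM106C (0.99) and ACTR8 (0.98), KCNJ8 like H2BC21 and CTNNA1 (both 0.98), and KCND3 like ABCB4 (0.98) and PTPN21 (0.97). KCNJ3 was most like SH3BP2 and SEPTIN3 (both 0.98), KCNJ5 like IRS1 (0.98) and MAN1C1 (0.97), and KCNA5 like MEGF9 (0.95) and IL1RAP (0.92). KCNQ1 was most like MYADML2 and RBFOX1 (both 0.97) and KCNE1 like ENOX2 (0.94) and TMEM186 (0.93). KCNQ5 was most like PTPRJ and IRX4 (both 0.99), the latter a transcription factor of ventricular muscle. Without replicate 5 the values for KCNQ5 were 0.83 and 0.82, and those of the other genes at least 0.91.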

How the data were processed

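RNA was sequenced from 12 libraries of H1 cells. Per the labels, total RNA was extracted and cDNA was made with a low-input module. The authors trimmed reads with Cutadapt 1.9.1, aligned them to hg38 with HISAT2 2.0.1 and counted them with HTSeq 0.6.1 (strand setting not given in the sources used here). The deposited table holds raw counts per Ensembl gene and the authors' FPKM, which equal the count divided by exon length and by the library total.

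Counts were fitted here with edgeR 4.0.16 in R 4.3.3 (TMM, filterByExpr, quasi-likelihood test, Benjamini-Hochberg adjustment over all genes tested). The 12 libraries formed 1 model of 6 groups. For both days together, the 8 libraries of the treatments compared were fitted with a day term. At the depth counted, 3 counts, the limit that a count of 0 allows, equal 0.156 to 0.202 CPM, which covers counting error only. On simulated counts with 200 of 19257 genes changed (Day 16 P-DF against NP-IWP2, 2 libraries each), edgeR recovered 54 of 100 genes changed 4-fold and 8 of 100 changed 2-fold, with 9 false calls. In the data 15.3% of the genes tested were called in that comparison. The adjustment depends on how many genes change, so these recoveries do not give the power of the real test. Equal replicate numbers on Day 12 and Day 16 gave no sign of pairing, with correlations of their deviations of 0.075, -0.0015 and -0.031. With 2 libraries per group, values near 0 cannot exclude a pairing.

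All 10 members are named, the other channel genes where called at least once with 12 libraries (1 such gene is counted but not reported here), and the 2 most similar genes per member. Members and lists were chosen with earlier results of these data known. Positions are GRCh38, and overlaps come from GENCODE v44. Alternatives were other scalings, no filter, DESeq2 1.42.0, limma 3.58.1 on log2(FPKM + 1) or log2(FPKM + 0.1), only the groups compared, a replicate block, and each library left out in turn.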

Additional observations from a re-analysis of the deposited data

How the results depend on the processing

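Each result was recomputed under 1 other choice at a time. The counts of called channel genes below stand without the share of all genes called under the same choice. They therefore show only how the number of calls moved. DESeq2's size factors (RLE) in edgeR left every count of called channel genes within 1.5 times. With total counts in place of TMM, 1 gene was called in P-IWP2 cells over both days in place of none, and the other counts stayed within 1.5 times. Without edgeR's filter, P-DF cells had 4 calls on Day 12 and 7 on Day 16, P-IWP2 cells 1 and 7, and the passaged treatments differed in 4 genes on Day 12 and 1 on Day 16. The time comparisons then had 2 (NP-IWP2), 5 (P-DF) and 8 calls (P-IWP2), the interactions 3 and 4, and P-IWP2 over both days 2. DESeq2 called 2 for P-DF on Day 12, 5 for P-IWP2 on Day 16, 1 between the passaged treatments on Day 12, and 2 each for NP-IWP2 over time, the P-IWP2 interaction and P-IWP2 over both days. Models of only the groups compared called 5 and 9 (P-DF, Day 12 and Day 16), 7 (P-IWP2, Day 16), 4 and 6 (time in NP-IWP2 and P-DF), 0 (time in P-IWP2) and 3 (P-DF interaction). On log2(FPKM + 1) and on log2(FPKM + 0.1), limma called 2 for P-DF on Day 16 (KCNH2 and KCNJ8), 1 and 2 for time in P-DF and P-IWP2, and 1 for P-IWP2 over both days. Genes with a mean under 1 FPKM were left out of limma. KCND3 and KCNE1 were thus not tested by it, so its lower counts are not lost calls of these genes. A replicate block, whose numbers gave no sign of pairing, gave 0, 3 and 4 calls over time and 0 and 0 interactions. The block turned the P-IWP2 interaction of KCNJ5 from -0.72 to 0.16 (adjusted p = 0.962, edgeR).

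With a library left out, the calls ranged from 0 to 4 (P-DF, Day 12), 0 to 7 (P-DF, Day 16), 0 to 5 (P-IWP2, Day 12), 1 to 7 (P-IWP2, Day 16), 0 to 7 (between passaged treatments, Day 12), 0 to 3, 1 to 6 and 3 to 9 (time in NP-IWP2, P-DF and P-IWP2), 0 to 2 and 0 to 9 (interactions), and 5 to 8 and 0 to 5 (both days). The high ends came from leaving out a Day 12 P-IWP2 library, except the 8 for P-DF over both days, which came without Day 12 P-DF replicate 4.

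Among the pairs of a gene and a comparison called with 12 libraries or without replicate 5, the signs that turned all belong to comparisons with Day 12 P-IWP2. Of the 61 other pairs, 15 also turned under some setting. On that day limma on log2(FPKM + 1) and log2(FPKM + 0.1) gave -0.0895 and -0.83 for KCNJ3, -0.26 and -0.36 for KCNJ5, -0.0660 and -0.14 for KCNQ1, and -0.89 and -1.86 for KCNQ5, all higher with edgeR. For KCNQ5 over both days they gave -0.34 and -0.82. For KCNA5 over time in P-IWP2 cells, total counts gave -0.39 and limma on log2(FPKM + 1) -0.0553. Leaving out a library spanned -3.97 to 1.58 (KCNJ3), -2.24 to 1.43 (KCNJ5), -1.17 to 0.80 (KCNQ1) and -5.68 to 1.23 (KCNQ5) on Day 12, -1.82 to 1.86 (KCNJ5), -0.58 to 1.48 (KCNA5) and -0.48 to 6.44 (KCNQ5) over time in P-IWP2 cells, -1.61 to 2.07 (KCNJ5) and -0.73 to 6.19 (KCNQ5) for the interaction, and -0.92 to 0.80 (KCNQ5) over both days. The cause was not tested.

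For the atrial minus ventricular difference, log2(FPKM + 0.1) and log2 CPM gave -1.03 and -1.29 (P-DF, Day 12), -1.69 and -1.83 (P-DF, Day 16) and -2.07 and -2.37 (P-IWP2, Day 16), and KCNJ3 with KCNJ5 as the only atrial genes -0.44 (P-DF, Day 12) and -1.19 (P-IWP2, Day 16). A smaller pseudocount weighs low genes such as KCNJ3 and KCNJ2 more. With a library left out, it ranged from -0.39 to -0.26 and -0.99 to -0.83 in P-DF (Day 12 and Day 16), and from -0.29 to 0.60 and -1.15 to -0.99 in P-IWP2 cells.

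In all, 56 pairs of a gene and a comparison, called with 12 libraries or without replicate 5, were followed through 1009 values: 801 kept their sign and side of the threshold, 84 lost and 100 gained a call, and 24 turned. Depth limits KCNJ2, KCNE1 and KCND3, and KCNJ3 in passaged cells.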
